A study of Oryctolagus cuniculus with 134 samples.

Results

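The response of the rabbit aorta to a lard-enriched diet was described across all genes in 14 of the 134 RNA libraries of the series, namely the 7 aorta libraries labelled Lard and the 7 aorta libraries labelled Control (Ctrl). The libraries were chosen by their tissue and treatment labels alone, and all 14 were on plate 2. The study set dietary lipids and cardiac irradiation beside each other in the proximal aorta and the heart valves of male New Zealand White rabbits. The protocol began at 12 weeks of age and lasted 16 weeks, after which a ring of the aorta was dissected, snap frozen and sequenced as total RNA, with 1 library per rabbit. Lard rabbits received 5% lard in the diet, and vitamin D2 at 25000 U per day and 2.5 kg of body weight during 15 days. Ctrl rabbits received chow without vitamin D2, so that the effect of the lard and that of the vitamin cannot be told apart here; a group on vitamin D2 alone was not analysed here. The 6 aorta libraries on 0.3% cholesterol with the same vitamin D2 (CHT), and the 7 with cardiac irradiation added to that diet (IR/CHT), entered the statistical model and served as a comparison.

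The wall of the aorta is built of layers of contractile smooth muscle cells between elastic sheets, under an endothelium and within an adventitia of fibroblasts, vessels and nerves. In calcifying arteries, cells of the wall can switch on genes that normally belong to cartilage and bone, among them transcription factors such as RUNX2 and SP7, the collagens of cartilage, and enzymes and proteins of the mineralizing matrix. Macrophages accumulate in diseased arteries, and macrophages and bone-resorbing osteoclasts share part of their gene programme, including several proteases.

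Between 17287664 and 22128828 read pairs were counted on genes in each of the 14 libraries, and their labelled tissue was checked on smooth muscle markers. MYH11, the smooth muscle myosin heavy chain, was at 72356 ± 8527 CPM (read pairs scaled to a common library size; mean ± SD, n = 7) in the Ctrl aorta and at 289.5 ± 173.2 CPM in the Ctrl aortic valve. ACTA2, smooth muscle actin, was at 11237 ± 1342 CPM in the Ctrl aorta and 188.4 ± 45.7 CPM in the Ctrl valve. Libraries stood apart in 2 ways. In 4 Ctrl libraries (L551, L552, L553, L570) and 2 Lard libraries (L562, L563), 10 of the 13 mitochondrial protein-coding genes together held 33.6 to 62.3 CPM, against 7782 to 11005 CPM in the other 8. The mean log2 CPM of 3 red blood cell genes was 5.48 in Ctrl L571, 4.15 in Ctrl L569 and 3.01 in Lard L562, against −1.37 to 1.38 in the other 11 libraries. In bulk tissue, fewer cells of a type and less RNA per cell cannot be told apart.

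Of 14777 genes tested, 386 (2.61%) were differentially expressed genes (DEGs) between Lard and Ctrl, called where the adjusted p was under 0.05 and the change over 1.5-fold. Of these, 380 (2.57%) were higher and 6 (0.0406%) lower on Lard. The 380 had a median log2 fold change of 1.92, with quartiles of 1.39 and 3.10, while the median of all tested genes was 0.01. Many of them were scarcely expressed on chow: 48.2% had a Ctrl mean under 1 CPM, and 98 had a fitted log2 fold change above 3. Genes at or near 0 on chow passed the filter on low counts only through groups where they were higher, so that counts, medians and scores over the tested members of any list below describe the genes kept and are no support for a change of the whole list. Every count of list members called below is to be read beside the 2.57% of all genes called higher. The numbers of DEGs rest on a model in which the 4 aorta groups share an estimate of the spread. With the Ctrl and Lard libraries alone, edgeR called 0 genes (2012 at an unadjusted p under 0.05, smallest adjusted p 0.0546) and DESeq2 called 517. The 2.61% also depended on single libraries: it was 1.45% without Lard L575, 1.48% without L562 or L578 and 3.81% without L576, and it was 1.65% without Ctrl L569 and 1.66% without Ctrl L568. Without Ctrl L569 and L571 together it was 0.744% (110 genes).

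**Figure D1:**
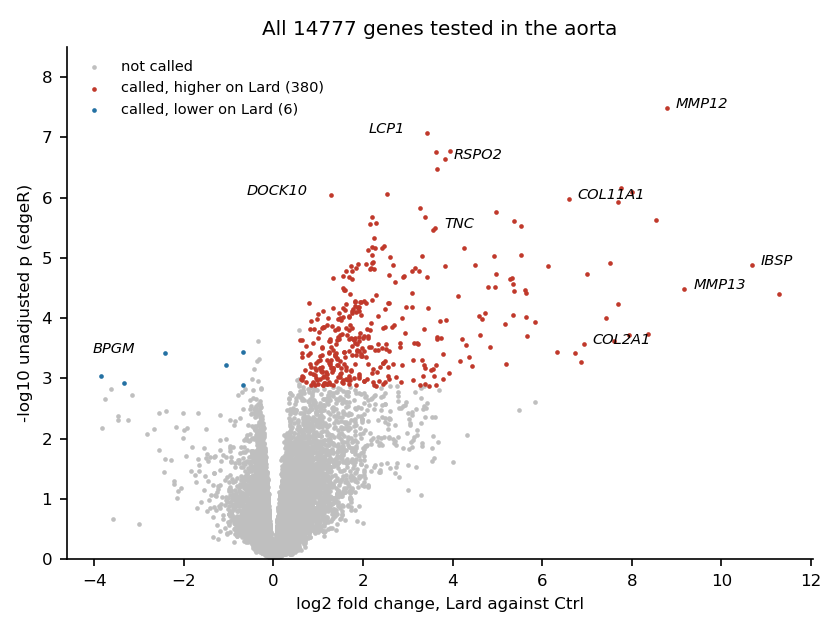
Each point is 1 of the 14777 genes tested, with the fitted log2 fold change of Lard against Ctrl on the horizontal axis and −log10 of the unadjusted p-value on the vertical axis; coloured points are the DEGs. Nearly all coloured points lie to the right, 380 against 6 on the left.

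The Lard libraries differed widely in how far they moved from chow. Of the 380 genes higher on Lard, Lard L562 and L575 each had 373 above the highest Ctrl library and L578 had 367, while L577 had 312, L564 had 283, L563 had 121 and L576 had 112. The mean log2 difference from the Ctrl mean over these genes was 2.88 in L578, 2.62 in L562 and 2.55 in L575, and only 0.61 in L563 and 0.49 in L576. Because the 380 genes were picked on these same libraries, the order is a description, and it was less steep over all tested genes, of which 9.35% (L576) to 21.3% (L578) lay above every Ctrl library. Every Lard library exceeded every Ctrl library for 26 of the 380 genes, against 31 of all 14777 tested genes (0.210%), and 6 of 7 did so for 99, 5 of 7 for 43.9% of the 380 and 4 of 7 for 68. In the other direction, every Lard library was below every Ctrl library for 0.0677% of all tested genes and for none of the 4 genes named below as lower. Over all genes, the libraries of the 4 groups had a similar spread: the biological coefficient of variation was 0.377 on Lard, 0.364 in Ctrl, 0.341 on CHT and 0.354 on IR/CHT, and the SD of log2 CPM was larger on Lard than in Ctrl for 47.8% of the genes tested. Among the 380, whose choice used these libraries, it was larger for 319 genes (83.9%), with a median SD of 1.04 on Lard against 0.60 in Ctrl and 0.66 on CHT.

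**Figure D2:**
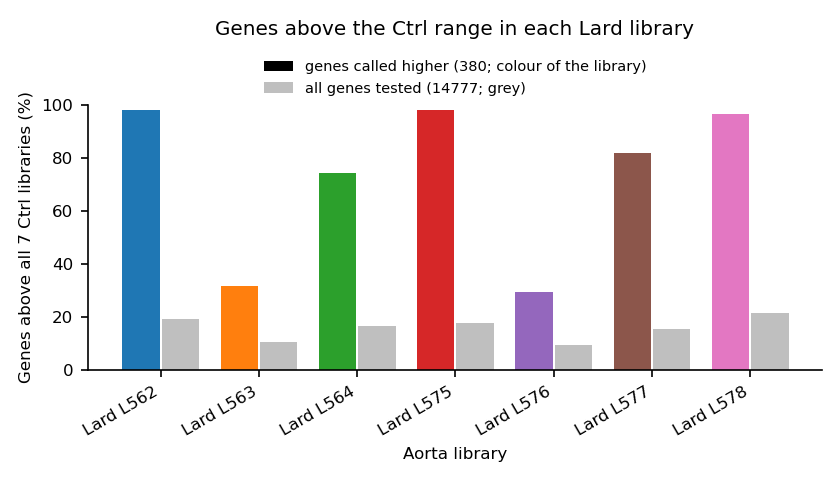
For each of the 7 Lard libraries, bars give the percentage of genes whose level lay above that of all 7 Ctrl libraries, among the 380 genes higher on Lard and among all 14777 tested. The first share ran from 29.5% (L576) to 98.2% (L562 and L575), the second from 9.35% to 21.3%.

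Genes of the cartilage matrix were among those that rose. Of 16 such genes tested, 8 were higher (COL2A1, COL9A1, COL11A1, COL11A2, ACAN, MATN1, MATN2 and SCRG1) and none lower, with a median log2 fold change of 1.12 over the 16. COL2A1 (ENSOCUG00000013629), the main collagen of cartilage, lay between 0.166 and 8.39 CPM in Ctrl (median 0.337) and between 0 and 657 CPM on Lard (median 54.9). Lard L578 (657 CPM), L562 (294 CPM) and L575 (214 CPM) held the highest levels of COL2A1, 6 Lard libraries were above all Ctrl libraries, and L576 had no read pair. Its log2 fold change was 6.93 (SE 1.64, adjusted p = 0.0197). COL11A1 (ENSOCUG00000013367), a chain of the collagen that forms fibrils with type II, lay between 0.329 and 1.90 CPM in Ctrl (median 0.966) and between 1.66 and 287 CPM on Lard (median 48.4). The groups overlapped in 1 Lard library only, and the log2 fold change was 6.59 (SE 1.05, adjusted p = 0.00140).

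ACAN, the large aggregating proteoglycan of cartilage, lay between 4.26 and 34.3 CPM in Ctrl (median 8.52) and between 5.50 and 399 CPM on Lard (median 139). Its log2 fold change was 3.43 (SE 0.67, adjusted p = 0.00493), with 5 Lard libraries above all Ctrl. MATN1, a cartilage matrilin that links collagen and proteoglycan, was at 5.73 ± 2.05 CPM in Ctrl and at 28.3 ± 23.2 CPM on Lard (n = 7 each; log2 fold change 2.30, SE 0.39, adjusted p = 0.00199). SCRG1, a small secreted protein found in cartilage, rose from 0.0628 ± 0.0800 to 3.24 ± 3.61 CPM (adjusted p = 0.00406). SOX9, the transcription factor that governs cartilage formation, was not called: it was at 14.2 ± 5.10 CPM in Ctrl and 21.5 ± 9.05 CPM on Lard (adjusted p = 0.399). Without Lard L578, COL2A1 lost its call (adjusted p = 0.0525) and 5 of the 16 cartilage genes were called; 4 were without Ctrl L569 and L571 and 3 with voom.

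Transcription factors of bone and genes of the bone matrix were a further group. Of 12 osteochondral transcription factors, 3 were higher (RUNX1, RUNX2 and SP7) with a median log2 fold change of 0.50, and of 18 genes of bone matrix and mineralization 4 were higher (ALPL, IBSP, SPP1 and TNFSF11), with a median of 0.57. The numbers of members called were 0 and 1 with voom, and 1 and 2 without Ctrl L569 and L571. They were 4 and 8 with DESeq2 on 4 groups, and lay between 2 and 3 and between 3 and 7 without 1 library. SP7, IBSP and TNFSF11, with 0 to 4 read pairs in Ctrl, were among the genes that passed the filter only through other groups; 12 of the 14 factors and 18 of the 21 bone genes in the files passed it. RUNX2 (ENSOCUG00000011739), the master regulator of osteoblast formation, lay between 0 and 0.783 CPM in Ctrl (median 0.170) and between 0.107 and 15.2 CPM on Lard (median 2.11). The highest level was in L562, next came L578 (3.96 CPM) and L575 (3.50 CPM), and 3 Lard libraries lay within the Ctrl range. The log2 fold change of RUNX2 was 3.85 (SE 0.85, adjusted p = 0.0119), and without Lard L562 its adjusted p was 0.0585. SP7 (ENSOCUG00000003811), or osterix, acts after RUNX2 in bone-forming cells. It had no read pair in any Ctrl library and 212 in the Lard libraries together, with levels from 0 in L563 and L576 to 7.61 CPM in L562. Against a floor of 3 read pairs over the Ctrl group, SP7 was at least 67.1-fold higher on Lard (adjusted p = 0.0169).

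IBSP (ENSOCUG00000001046), bone sialoprotein, differed widely between Lard libraries. It had 2 read pairs in all Ctrl libraries together and 4931 in the Lard libraries, a ratio of 2341 with a counting interval (exact, 95%) of 648 to 19340 that leaves out the spread between rabbits. Lard L562 held 219 CPM of IBSP and L575 held 32.2 CPM, L578, L577 and L564 held 2.09 to 3.84 CPM, and L563 and L576 stayed within the Ctrl range (adjusted p = 0.00444). SPP1, or osteopontin, is made by macrophages as well as bone cells. It lay between 20.2 and 83.3 CPM in Ctrl (median 51.8) and between 23.7 and 1008 CPM on Lard (median 437), with 4 Lard libraries above all Ctrl and a log2 fold change of 3.15 (SE 0.60, adjusted p = 0.00447). TNFSF11 (RANKL), the ligand that drives osteoclast formation, rose from 0.0316 ± 0.0836 to 1.90 ± 2.18 CPM (n = 7 each; adjusted p = 0.0115). ALPL, the alkaline phosphatase that frees phosphate for mineral, rose from 0.411 ± 0.339 to 4.28 ± 7.18 CPM, but its adjusted p of 0.0311 went to 0.229 without L562 and its call was lost in 7 of 14 such fits. BGLAP, osteocalcin, a late product of osteoblasts, was not called at 1.99 ± 1.49 CPM in Ctrl and 10.5 ± 15.6 CPM on Lard (log2 fold change 2.40, SE 0.70, adjusted p = 0.0650). MSX2, another osteogenic factor, was at 2.84 ± 0.690 and 3.53 ± 0.722 CPM (adjusted p = 0.594).

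**Figure D3:**
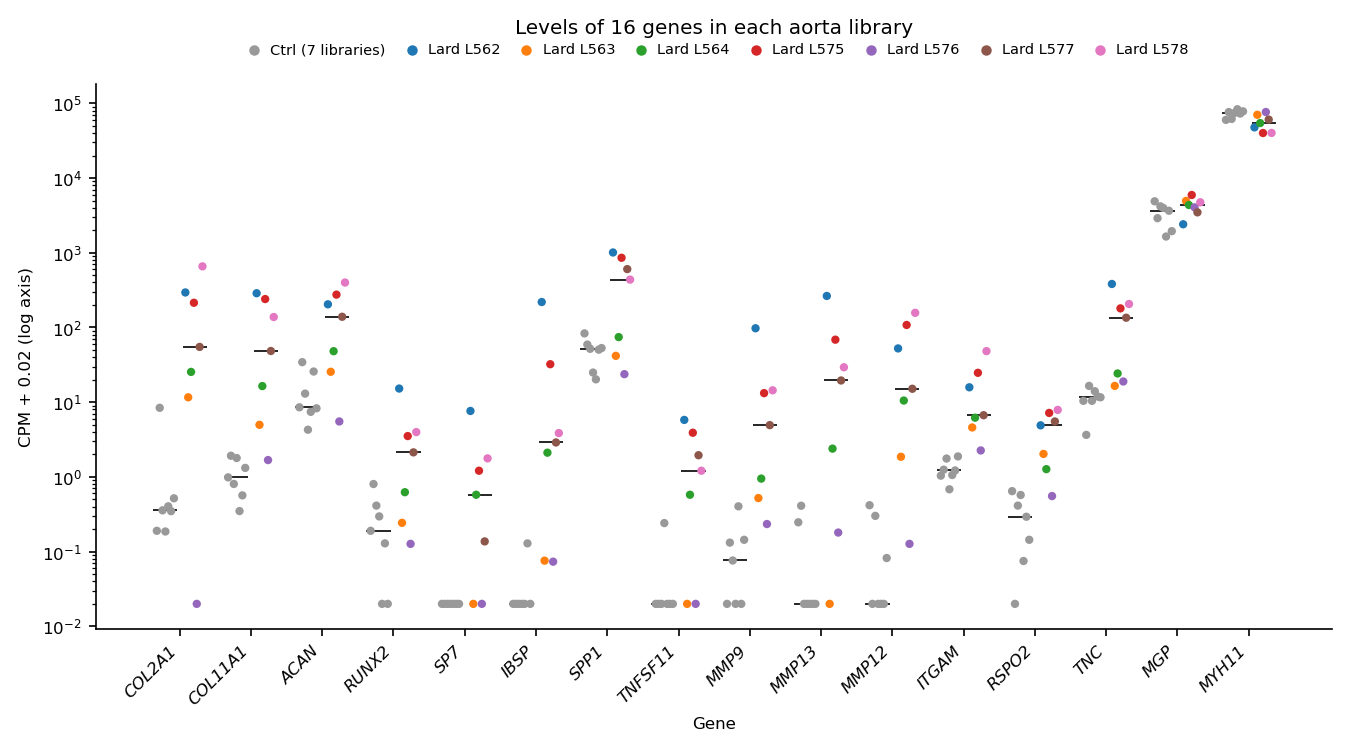
Points give the level of single genes in every Ctrl and Lard aorta library, in CPM on a log axis, with Ctrl in grey and each Lard library in its own colour; horizontal lines mark group medians, and 0.02 CPM was added so that zeros could be drawn. Lard L562, L575 and L578 hold the highest levels of COL2A1, RUNX2 and MMP12, while L576 was at or below the highest Ctrl library for all 3.

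Some osteoclast genes and matrix proteases were also higher. Of 13 osteoclast genes listed, 7 were in the files and 5 passed the filter on low counts, of which 3 were higher (MMP9, OSCAR and ATP6V0D2). MMP9 and OSCAR, at or near 0 on chow, passed that filter only through groups where they were higher, so that 3 of 5 describes the genes kept and not the list. Of 30 matrix proteases and inhibitors 4 were higher (MMP1, MMP2, MMP12 and MMP13), with a median log2 fold change of 0.34, and MMP1, MMP12 and MMP13 had passed the filter in the same way; 33 of the list were in the files. MMP12 (ENSOCUG00000008303), the elastase of macrophages, had the smallest p-value of all genes. It lay between 0 and 0.398 CPM in Ctrl (median 0) and between 0.107 and 156.8 CPM on Lard (median 15.1). Its levels were 156.8 CPM in L578, 108 CPM in L575 and 52.4 CPM in L562, and all Lard libraries but L576 exceeded the Ctrl range (log2 fold change 8.78, SE 1.15, adjusted p = 4.87e-04). MMP13 (ENSOCUG00000002481), the collagenase of hypertrophic cartilage and bone, lay between 0 and 0.391 CPM in Ctrl and between 0 and 263.8 CPM on Lard (median 19.5; adjusted p = 0.00670). MMP9, the gelatinase of osteoclasts and neutrophils, reached 97.5 CPM in L562 and rose from 0.0966 ± 0.137 to 18.8 ± 35.2 CPM (adjusted p = 0.00444). MMP1, the interstitial collagenase, had no read pair in Ctrl and was at least 87.4-fold higher on Lard (adjusted p = 0.0166).

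OSCAR, an immunoglobulin-like receptor of osteoclasts, was likewise at 0 in every Ctrl library and at least 28.8-fold higher on Lard (adjusted p = 0.0237). ATP6V0D2, a proton pump subunit of osteoclasts and macrophages, was higher at 14.4 ± 22.9 against 1.47 ± 2.44 CPM (adjusted p = 0.0490). OSCAR lost its call without L562 (adjusted p = 0.0736), ATP6V0D2 lost its call in 9 of the 14 fits that left out 1 library (adjusted p up to 0.238, without L578), and without L562 only 1 of the 5 osteoclast genes was called. Without Ctrl L569 and L571, 1 osteoclast gene and 1 protease were called, and with voom 0 and 1. With SP7, OSCAR and MMP1 set to their lower bounds, the medians of their lists did not move. No other outcome was possible, since each bound stayed above the median of its list.

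Of 20 macrophage genes tested, 11 were higher (CD68, MSR1, CSF1R, AIF1, CD14, FCER1G, TYROBP, GPNMB, CTSS, ITGAM and ITGAX), all 20 had a positive log2 fold change, and the median was 1.46. The number of members called was 5 without Ctrl L569 and L571, 2 with voom and 0 with edgeR on the Ctrl and Lard libraries alone. ITGAM (ENSOCUG00000001587), the CD11b integrin of myeloid cells, lay between 0.663 and 1.86 CPM in Ctrl (median 1.20) and between 2.24 and 48.2 CPM on Lard (median 6.67), so that the groups did not overlap. Its log2 fold change was 3.62 (SE 0.52, adjusted p = 6.37e-04). ITGAX, the CD11c integrin of macrophages and dendritic cells, rose from 0.169 ± 0.124 to 7.33 ± 9.88 CPM (adjusted p = 0.00199), and FCER1G, the signalling chain of Fc receptors, from 1.93 ± 1.21 to 8.55 ± 4.62 CPM (adjusted p = 0.00199). CD68, a lysosomal protein of macrophages, was at 10.6 ± 3.38 CPM in Ctrl and 27.8 ± 23.8 CPM on Lard (adjusted p = 0.0454, and 0.165 without L578). CD163, the haemoglobin scavenger receptor of resident macrophages, was not called at 13.5 ± 7.74 and 23.9 ± 7.50 CPM (adjusted p = 0.194). The mean log2 CPM of the 20 genes lay between 1.77 and 2.95 in Ctrl and between 2.89 and 4.73 on Lard, with 6 Lard libraries above all Ctrl. Its 3 highest values were in L578 (4.73), L575 (4.34) and L562 (4.24), the libraries that also held the most cartilage and bone RNA; what part macrophage RNA has in the other groups was not tested.

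Several of the DEGs of smallest p were outside that list, and some of these are known from leukocytes, a grouping made after their values were seen and not tested. LCP1, the actin-bundling protein of leukocytes, lay between 5.32 and 16.1 CPM in Ctrl (median 7.92) and between 15.4 and 163 CPM on Lard (median 135), with a log2 fold change of 3.42 (SE 0.47, adjusted p = 6.36e-04). LY86, the partner of an immune Toll-like receptor, was above all Ctrl libraries in 7 of 7 Lard libraries (0.0567 ± 0.0329 against 0.963 ± 0.777 CPM, adjusted p = 6.37e-04), as was IGSF6, an immunoglobulin superfamily member of myeloid cells (0.162 ± 0.0692 against 2.12 ± 2.42 CPM, adjusted p = 8.29e-04). DOCK10 rose in 7 of 7 as well, by a log2 fold change of 1.29 (SE 0.20, adjusted p = 0.00133). RGS1, a regulator of chemokine receptor signalling, had 1 read pair in Ctrl and 384 on Lard, a ratio of 365 with a counting interval of 65.1 to 14441 (adjusted p = 0.00148). NYAP2, an adaptor of phosphoinositide 3-kinase, had 2 and 626 read pairs (ratio 297, 81.9 to 2460, adjusted p = 0.00133). PGBD5, derived from a transposase, had 1 and 474 read pairs (ratio 450, 80.4 to 17817, adjusted p = 0.00133).

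Of 42 genes of the inflammatory response, 9 were higher (CCL2, CX3CL1, CCR1, TLR2, TLR8, PYCARD, ALOX5, ALOX5AP and S100A8), with a median log2 fold change of 1.18. CCL2, the chemokine that attracts monocytes, went from 0.886 ± 0.293 to 3.27 ± 1.82 CPM (a log2 fold change of 1.88, SE 0.40, adjusted p = 0.00979). TLR2, a receptor for bacterial lipoproteins, rose from 0.897 ± 0.473 to 2.68 ± 0.890 CPM (adjusted p = 0.00670), and ALOX5AP, which supplies the leukotriene pathway, from 2.13 ± 0.885 to 5.33 ± 2.24 CPM (adjusted p = 0.00979). The cytokine genes IL1B and TNF were not called: IL1B was at 0.0909 ± 0.0791 and 0.343 ± 0.487 CPM (adjusted p = 0.222), and TNF had 11 read pairs in each group. Of the 42 inflammatory genes, 4 were called without L562, 2 with voom and 1 without Ctrl L569 and L571. S100A8, a neutrophil protein, was at 2.78, 1.17 and 0.882 CPM in L562, L563 and L564, at 0 to 0.283 CPM in the other 4 Lard libraries, and at 0 to 0.112 CPM in Ctrl (adjusted p = 0.0198, and 0.0804 without L562). It was the called one of the 2 neutrophil genes that passed the filter, of 11 in the files, and with 4 read pairs in Ctrl it had passed only through other groups. CD28, a T cell costimulatory receptor, was the only called one of 6 T cell genes, with 1 read pair in Ctrl and 40 on Lard (ratio 38.0, 6.44 to 1537), and lost its call in 9 of the 14 fits without 1 library. Of 4 B cell and 2 mast cell genes, none was called, and of 38 cell division genes 1 was higher (NCAPH, a condensin subunit, at 4.26 ± 1.44 and 8.83 ± 3.56 CPM, adjusted p = 0.0333), where 2.57% of all genes were. NCAPH lost its call in 8 of the 14 fits without 1 library (adjusted p up to 0.109), with voom and without Ctrl L569 and L571.

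**Figure D4:**
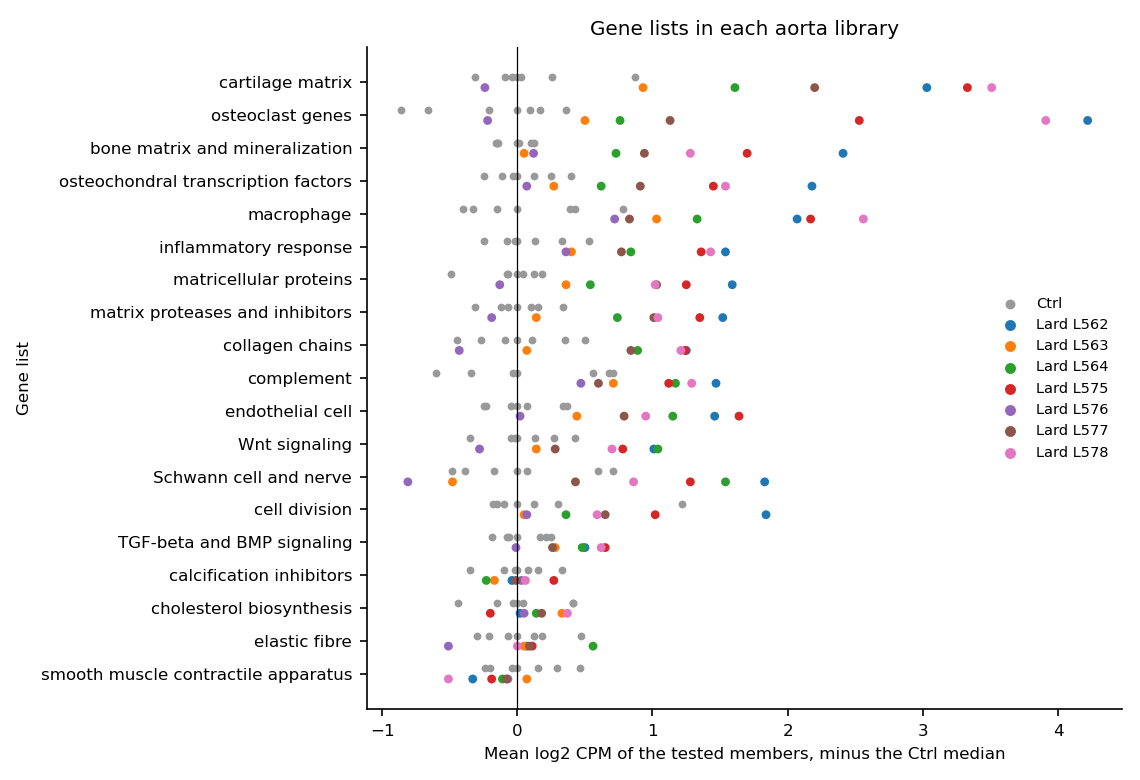
Each row is 1 gene list, and each point the mean log2 CPM of the list's tested genes in 1 aorta library minus the median of the Ctrl libraries, with Ctrl in grey and the Lard libraries in colour. Macrophage and endothelial scores exceeded all Ctrl libraries in 6 of 7 Lard libraries, while those of smooth muscle, between 9.06 and 9.64 before subtraction, overlapped the Ctrl range of 9.33 to 10.03.

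Of 26 collagen chains outside the cartilage list, 4 were higher (COL8A1, COL12A1, COL23A1 and COL24A1), and the median log2 fold change was 0.70. COL8A1, a short-chain collagen of the vessel wall, lay between 10.6 and 19.0 CPM in Ctrl (median 12.2) and between 6.68 and 148 CPM on Lard (median 83.6; log2 fold change 2.61, SE 0.48, adjusted p = 0.00406). For COL8A1, 6 Lard libraries were above and 1 was below all Ctrl libraries. COL24A1, a fibrillar collagen of developing bone, rose from 0.308 ± 0.327 to 9.54 ± 14.9 CPM (adjusted p = 0.00630), and COL23A1, a membrane collagen, from 1.47 ± 0.744 to 10.8 ± 16.5 CPM (adjusted p = 0.0118, and 0.0631 without L578). The abundant collagens of the wall were not called: the log2 fold changes were 0.90 (SE 0.49, adjusted p = 0.373) for COL1A1, 1.03 (SE 0.33, adjusted p = 0.0973) for COL1A2 and 0.51 (SE 0.25, adjusted p = 0.314) for COL3A1. Without L578, 2 of the 26 chains were called, against up to 7 without another library and 7 with DESeq2 on 4 groups.

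Of 15 matricellular proteins, which modulate adhesion without building fibres, 3 were higher with a list median of 0.64. TNC, tenascin C, lay between 3.63 and 16.5 CPM in Ctrl (median 11.6) and between 16.5 and 382 CPM on Lard (median 135; log2 fold change 3.61, SE 0.62, adjusted p = 0.00217), and its groups did not overlap. TNN, another tenascin, rose from 1.88 ± 2.42 to 19.4 ± 23.7 CPM (adjusted p = 0.0146), and POSTN, periostin, was higher by a log2 fold change of 1.17 (SE 0.31, adjusted p = 0.0366, lost in 9 of 14 fits without 1 library), with medians of 345 CPM in Ctrl and 1151 CPM on Lard and 4 Lard libraries above all Ctrl. Without L562, 1 of the 15 was called. TNFAIP6, a hyaluronan-binding protein of inflamed tissue, was the called one of 13 proteoglycan and hyaluronan genes, at 0.199 ± 0.169 and 6.5 ± 6.74 CPM (adjusted p = 0.00186). Of 20 collagen processing genes, 2 were higher, where 2.57% of all genes were: P4HA3, a prolyl hydroxylase subunit (adjusted p = 0.0142), and PCOLCE, an enhancer of collagen maturation (adjusted p = 0.0299, lost in 8 of 14 fits without 1 library). None of 12 elastic fibre genes was called, where 2.61% of all genes were, with a median of −0.14. FBN1, fibrillin 1, had a log2 fold change of −0.18 (adjusted p = 0.511) and LOX, the enzyme that crosslinks elastin and collagen, one of −0.34 (adjusted p = 0.493).

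Among signalling pathways, 5 of 32 Wnt genes were higher (RSPO2, DKK1, WIF1, LEF1 and KREMEN1), where 2.57% of all genes were, with a median of 0.18 over the list. RSPO2, a secreted amplifier of Wnt signalling, lay between 0 and 0.625 CPM in Ctrl (median 0.273) and between 0.534 and 7.86 CPM on Lard (median 4.88; log2 fold change 3.82, SE 0.55, adjusted p = 6.85e-04). LEF1, a transcription factor of the pathway, rose from 0.791 ± 0.425 to 4.99 ± 4.40 CPM (adjusted p = 0.0142). Inhibitors rose as well: DKK1, a secreted antagonist, from 0.219 ± 0.177 to 1.59 ± 1.33 CPM (adjusted p = 0.0208), and KREMEN1, a receptor for DKK proteins, from 5.31 ± 1.31 to 10.7 ± 3.87 CPM (adjusted p = 0.0154). The number of Wnt genes called was 2 with voom and 2 without Ctrl L569 and L571. DKK1 lost its call without L562 (adjusted p = 0.0707) or Ctrl L568 (0.051). Of 34 genes of TGF-beta and BMP signalling, 2 were higher, where 2.57% of all genes were: BMPER, a secreted regulator of BMP (3.98 ± 1.4 and 13.6 ± 7.38 CPM, 7 of 7 Lard libraries above all Ctrl, adjusted p = 0.00449) and CHRDL2, a BMP antagonist (0.959 ± 0.485 and 10.4 ± 8.37 CPM, adjusted p = 0.00979). The ligands BMP2 and BMP4 were not called (log2 fold change 0.70, adjusted p = 0.348, and 0.14, adjusted p = 0.764).

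Endothelial genes were all on the positive side, 12 of 12, with a median of 0.93, but by edgeR on the 4 groups only TEK, the angiopoietin receptor, was called (15.1 ± 5.34 and 31.9 ± 11.1 CPM, adjusted p = 0.0214). FLT1, a VEGF receptor, went from 11.7 ± 3.29 to 29.6 ± 12.9 CPM (a log2 fold change of 1.34, SE 0.26, adjusted p = 0.00495), and PGF, a ligand of FLT1, rose from 1.74 ± 0.930 to 4.88 ± 2.74 CPM (adjusted p = 0.0389). These were the 3 called of 32 angiogenesis genes, of which 1 was called without L562, without L575, or without Ctrl L569 and L571. PGF lost its call in 9 of the 14 fits without 1 library (adjusted p up to 0.102). TEK lost its call without L562 or L575 (adjusted p up to 0.0695). Of the 12 endothelial genes, DESeq2 called 4 on 4 groups and 6 on the Ctrl and Lard libraries alone, and 0 to 3 were called without 1 library. Of 12 complement genes, 3 were higher and all 12 positive: CLU, clusterin, rose from 162 ± 24.0 to 324 ± 86.8 CPM (adjusted p = 0.0178), and C1R and C1S, the proteases that start the classical pathway, had log2 fold changes of 0.93 (adjusted p = 0.0490) and 0.88 (adjusted p = 0.0382). Without Ctrl L569 and L571, 0 complement genes were called. C1R lost its call in 10 and C1S in 8 of the 14 fits without 1 library. Of 15 oxidative stress genes, CYBB, the oxidase of phagocytes, and SRXN1, which repairs peroxiredoxins, were higher (adjusted p = 0.0333 each, and each lost in 7 of 14 such fits).

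Genes of lipid handling, smooth muscle and protection from calcification gave few or no calls. With 2.61% of all genes called, few or no calls in lists of this size are no result about them. UCP2, a mitochondrial carrier abundant in macrophages, was the only called gene among 27 of fatty acid oxidation (4.6 ± 1.5 and 12.4 ± 6.16 CPM, adjusted p = 0.0146), where 2.57% of all genes were called higher, and 0 of the 27 were called with voom or without Ctrl L569 and L571. None was called among 9 genes of fatty acid synthesis (median 0.06), 17 of cholesterol biosynthesis (0.07), 19 of the ER and integrated stress response (0.11) and 3 of the vitamin D pathway that could be tested. CYP24A1, the enzyme that breaks down active vitamin D, had no read pair in Ctrl and 33 on Lard and was too low to be tested. PDK4 and ANGPTL4, targets of fatty acid receptors, had log2 fold changes of 0.41 (SE 0.29) and 0.67 (SE 0.50), adjusted p = 0.519 and 0.534. VDR, the vitamin D receptor, was at 0.531 ± 0.545 CPM in Ctrl and 1.89 ± 1.66 CPM on Lard (log2 fold change 1.82, SE 0.66, adjusted p = 0.159). Of 11 calcification inhibitors, none was called and the median was 0.03. Among these, MGP, which keeps the media free of mineral, was at 3310 ± 1194 and 4268 ± 1124 CPM (adjusted p = 0.443), and ENPP1, which makes the mineral inhibitor pyrophosphate, at 118 ± 21.1 and 126 ± 13.6 CPM (adjusted p = 0.801). ANKH, which exports pyrophosphate precursors, was at 218 ± 26.2 and 310 ± 93.1 CPM (adjusted p = 0.0848), and the decoy receptor of RANKL, TNFRSF11B, at 74.6 ± 26.1 and 84.7 ± 19.5 CPM (adjusted p = 0.678). The phosphate transporters SLC20A1 and SLC20A2 had log2 fold changes of 0.34 (adjusted p = 0.293) and −0.01 (adjusted p = 0.980).

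Of 26 genes of the smooth muscle contractile apparatus, none was called, 4 had a positive log2 fold change and the median was −0.25. MYH11 was at 72356 ± 8527 CPM in Ctrl and 55598 ± 14232 CPM on Lard (log2 fold change −0.38, SE 0.25, adjusted p = 0.483), ACTA2 at 11237 ± 1342 and 8459 ± 2633 CPM (−0.41, SE 0.26, adjusted p = 0.459), and MYOCD, the coactivator that maintains the contractile state, at 467 ± 107 and 319 ± 96.7 CPM (−0.55, SE 0.26, adjusted p = 0.312). Markers of other tissue in the ring also gave no call: 8 genes of adventitial fibroblasts (median 0.21), 9 of adipocytes (0.45), 10 of Schwann cells and nerve (1.03, with 4 Lard libraries above and 1 below all Ctrl), 5 of lymphatic endothelium (0.13), 13 of heart muscle (−0.06) and 2 of skeletal muscle (−0.29). The lists of this paragraph are likewise small beside the 2.61% of all genes called, so that their lack of calls is no result about them. The part that the mixture of cells in the ring has in the changes above was not tested.

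The 6 genes lower on Lard included 4 with a symbol. BPGM, an enzyme abundant in red blood cells, was at 344 CPM in Ctrl L571, 152.8 CPM in Ctrl L569 and 13.4 to 39.9 CPM in the other 5 Ctrl libraries, against 12.9 to 19.9 CPM on Lard (log2 fold change −2.43, SE 0.60, adjusted p = 0.0237). MKRN1, a ubiquitin ligase, was likewise highest in L571 (220 CPM) and L569 (102 CPM), and lay between 32.1 and 46.3 CPM on Lard (adjusted p = 0.0312). The 3 red blood cell genes tested had a median of −2.21, which turned to 0.90 without these 2 libraries. U1, a spliceosomal RNA with many near-identical gene copies whose reads may be divided among them, was at 53.6, 39.7 and 25.6 CPM in Ctrl L551, L569 and L552, at 0.929 to 1.74 CPM in the other 4 Ctrl libraries and at 0.585 to 2.42 CPM on Lard, so that 3 Ctrl libraries carry its call (adjusted p = 0.0472) and the Lard median (1.95 CPM) was above the Ctrl median (1.74 CPM). PDP1, the phosphatase that activates pyruvate dehydrogenase, was below all Ctrl libraries in 6 of 7 Lard libraries (59.5 ± 13.1 and 37.1 ± 10.5 CPM, log2 fold change −0.68, SE 0.19, adjusted p = 0.0490). None of the 4 kept its call in every fit without 1 library, with an adjusted p of up to 0.131 for BPGM, 0.0923 for MKRN1, 0.112 for U1 and 0.122 for PDP1.

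The cholesterol diet with the same vitamin D2 was tested against Lard directly in the same model. It shared the Ctrl libraries with Lard, so that the responses are given side by side. CHT changed 2863 genes against Ctrl (19.4%), and between Lard and CHT 1382 (9.35%) differed, 299 (2.02%) being higher on Lard and 1083 (7.33%) lower. Of the 20 macrophage genes, 15 were lower and none higher on Lard than on CHT, and the medians against Ctrl were 1.46 on Lard and 3.88 on CHT. ITGAM was at 15.5 ± 16.4 CPM on Lard and 109 ± 41.8 CPM on CHT (log2 difference −2.82, SE 0.47, adjusted p = 1.17e-04), and MMP12 at 49.2 ± 61.0 and 311.6 ± 176.5 CPM (−2.66, SE 0.74, adjusted p = 0.0175). Of 38 cell division genes 34 were lower on Lard (medians against Ctrl 0.55 and 3.15), and of 42 inflammatory genes 14 were lower (1.18 and 2.47). Against Ctrl, 11 of 12 endothelial and 10 of 12 complement genes were called higher on CHT, and 1 and 3 on Lard. Of 15 matricellular genes 7 were called higher on CHT and 3 on Lard, and of 5 osteoclast genes 4 and 3. The cartilage, Wnt and neutrophil lists had more genes called higher on Lard (8, 5 and 1) than on CHT (4, 3 and 0). For TNF, Lard was at 0.0839 ± 0.0511 CPM and CHT at 1.5 ± 0.987 CPM (adjusted p = 8.06e-05).

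Some cartilage and bone genes were higher and fewer were lower on Lard than on CHT. Over all genes, 2.02% were higher and 7.33% lower, so that the few lower members are no result about the lists. Of 16 cartilage genes, 6 were higher on Lard than on CHT (COL11A1, COL11A2, COL9A2, MATN2, EPYC and CILP) and 1 lower (MATN1), with medians against Ctrl of 1.12 and 0.45. COL11A1 was at 105 ± 118 CPM on Lard and 13.7 ± 19.1 CPM on CHT (log2 difference 2.94, SE 0.90, adjusted p = 0.0309). COL2A1 did not pass (180 ± 238.8 and 11.9 ± 23.9 CPM, adjusted p = 0.0867), nor did RUNX2 (3.67 ± 5.32 and 1.92 ± 0.951 CPM, adjusted p = 0.477) or IBSP (37.1 ± 80.9 and 4.28 ± 5.27 CPM, adjusted p = 0.106). SP7 was at 1.60 ± 2.73 CPM on Lard and 0.0174 ± 0.0427 CPM on CHT (adjusted p = 0.0118), TNFSF11 at 1.90 ± 2.18 and 0.0436 ± 0.0526 CPM (adjusted p = 0.00490), MMP13 at 54.8 ± 95.3 and 1.15 ± 2.27 CPM (adjusted p = 0.0139), BGLAP at 10.5 ± 15.6 and 1.60 ± 1.61 CPM (adjusted p = 0.0172) and COL24A1 at 9.54 ± 14.9 and 0.869 ± 1.05 CPM (adjusted p = 0.0151). Of 18 bone matrix genes, 3 were higher on Lard (BGLAP, TNFSF11 and PHEX) and 2 lower (BMP6 and ANXA5). Of 17 cholesterol biosynthesis genes, 12 were higher on Lard than on CHT, and 13 were lower on CHT than in Ctrl, where 5.18% of all genes were.

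**Figure D5:**
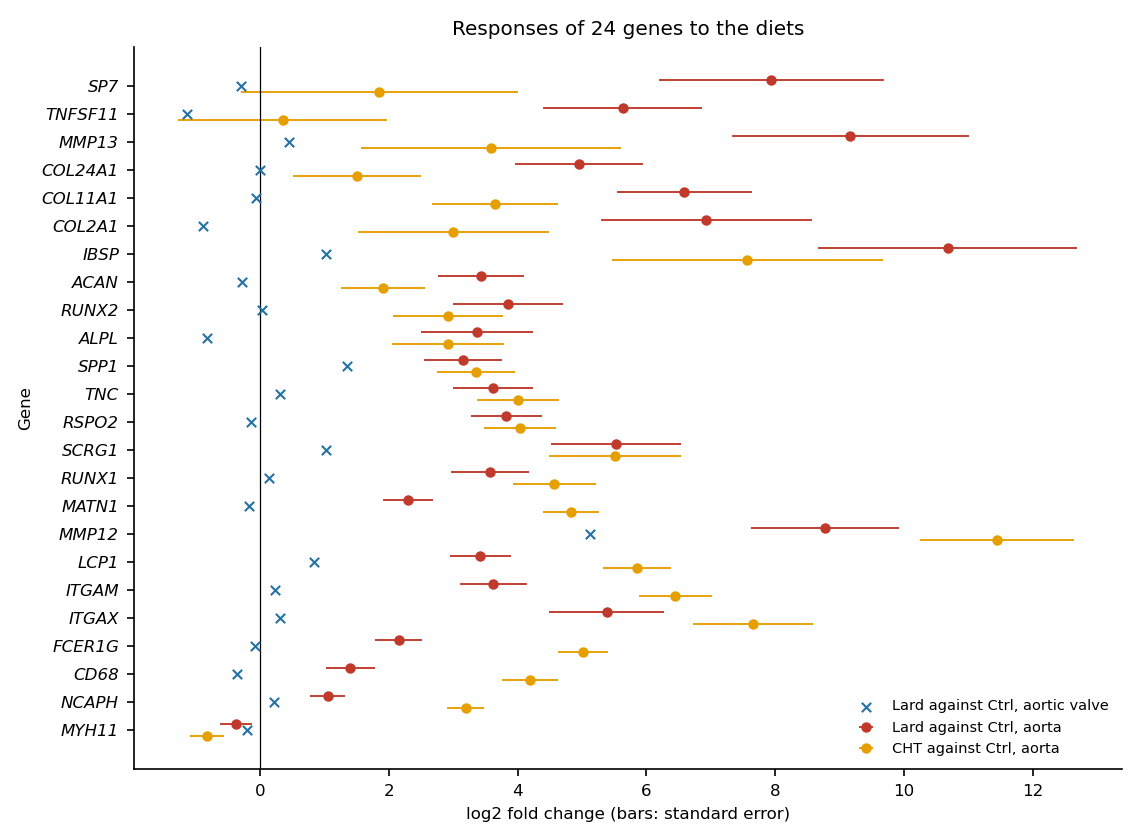
Points are named genes, with the fitted log2 fold change of Lard against Ctrl set beside that of the same genes on CHT in the aorta and on Lard in the aortic valve (crosses); bars are standard errors of the aorta values. Both aorta contrasts share the Ctrl libraries, and fitted values of genes without Ctrl reads, such as SP7, depend on the prior count and are no bounds.

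In the aortic valve of the same rabbits the response to Lard was set beside that of the aorta. Of 16125 genes tested in a model of both tissues, the Lard response differed for 376 (2.33%), being lower in the valve than in the aorta for 352 (2.18%) and higher for 24 (0.149%). All aorta libraries were on plate 2, while 3 of the 7 Ctrl and 3 of the 7 Lard valve libraries were on plate 1. The share was 1.04% on plate 2 only, 0.391% with the Ctrl and Lard libraries alone and 1.44% with the rabbit as a block, and it was 1.19% without Lard L578, 1.47% without L562, 1.52% without L575, 3.66% without L563 and 3.68% without L576. The 380 genes had a median log2 fold change of −0.07 in the valve, where 43.7% of them were above 0. They were chosen as higher in the aorta, so that a lower response in the valve is partly given by their choice. The same valve values over all genes were not computed. Over all 16125 genes, the response in the valve minus that in the aorta had a median of −0.15. COL2A1 was at 15.4 ± 10.9 CPM in the Ctrl valve and 8.35 ± 7.44 CPM in the Lard valve (difference of responses −7.83 on the log2 scale, SE 1.65, adjusted p = 0.00586). COL11A1 was at 136 ± 31.8 and 131 ± 28.6 CPM (−6.66, SE 0.95, adjusted p = 8.55e-05), RSPO2 at 58.8 ± 17.8 and 52.9 ± 20.9 CPM (−3.98, SE 0.60, adjusted p = 1.80e-04), ITGAM at 6.15 ± 2.38 and 7.13 ± 3.87 CPM (−3.42, SE 0.57, adjusted p = 0.00141), and RUNX2 at 0.476 ± 0.429 and 0.482 ± 0.258 CPM (−3.85, SE 1.0, adjusted p = 0.0259). With the rabbit as a block, the difference kept its call for COL2A1 (−7.36, adjusted p = 0.0198), COL11A1, RSPO2 and ITGAM (adjusted p = 0.0147 each) but not for RUNX2 (−2.90, adjusted p = 0.104), and on plate 2 only COL2A1 did not pass either (adjusted p = 0.0941). On chow, the levels of these genes were higher in the valve than in the aorta, where COL2A1 was at 1.47 ± 3.05 CPM, COL11A1 at 1.09 ± 0.598 CPM and RSPO2 at 0.289 ± 0.245 CPM; that difference between tissues was not tested. The smallest p-values of the difference included those of MYO1F, a myosin of leukocytes (−3.06, SE 0.53, adjusted p = 0.00149), and DISC1, a scaffold protein (−2.18, SE 0.38, adjusted p = 0.00149), both above all Ctrl libraries in 7 of 7 Lard aortas. For MMP12 (−3.68, SE 3.18, adjusted p = 0.490) and IBSP (−9.70, SE 3.41, adjusted p = 0.108), the difference did not pass.

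By rabbit, the 3 aortas farthest from chow did not come with 3 valves of the same kind. The median log2 difference from Ctrl over the 380 genes was 2.58 in the aorta and −0.15 in the valve for the rabbit of L578, 2.26 and −0.42 for L562, and 2.24 and 0.50 for L575. It was 1.27 and −0.16 for L564, 1.26 and 0.10 for L577, 0.52 and −0.39 for L563, and 0.43 and 0.02 for L576, where 372 of the genes entered the valve values. In the valve of the rabbit of L575, 36.8% of the genes lay above all Ctrl valves, against 4.57% to 14% in the other 6. The same share over all genes of the valve was not computed, so that these shares are no result about the genes chosen. The valve libraries of the rabbits of L562, L563 and L575 were on plate 1.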

How the data were processed

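The values were whole-number counts of read pairs per gene, deposited by the authors for 134 libraries without normalization or pooling; here the 27 aorta libraries were used, with 27 of the aortic valve for 1 comparison. Per the study's methods, total RNA (10 ng) was made into libraries with a stranded pico-input kit, sequenced on a NovaSeq6000, mapped to OryCun2.0 and counted on Ensembl genes with nf-core/rnaseq; the submitters' processing notes name bcl2fastq 2.20. The pipeline was run with default parameters except for trimming, and no strand option is among the changes stated, so that reads of overlapping or antisense genes may not be told apart. Coordinates and sequences were not used here.

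Counts were analysed in R 4.3.3 with edgeR 4.0.16: filterByExpr, which kept 14777 of 29587 genes (10332 with a symbol), TMM scaling, and 1 robust quasi-likelihood model of the 4 aorta groups (7 Ctrl, 6 CHT, 7 Lard, 7 IR/CHT) without covariates. DEGs had a Benjamini-Hochberg adjusted p under 0.05 over all genes tested and a fold change over 1.5. Standard errors are the fold change divided by the root of the test statistic. CPM are on TMM-scaled library sizes, and list scores are means of log2 CPM (prior count 2). Folds against groups without reads used a floor of 3 read pairs over the group; intervals of read pair ratios and floors cover counting error only. The difference of Lard responses between tissues was tested as an interaction and called at an adjusted p under 0.05. Aorta and valve came from the same rabbits by the number in the library's name; deviations from group means had a median correlation of 0.209 within and −0.00405 between rabbits, and 21 of 27 pairs were over 0.1. Labels number each library separately within the aorta, and p-values within the aorta measure the spread between rabbits. Those of the difference between tissues come from a model without a term for the rabbit, which treats the aorta and the valve of a rabbit as independent. No 2 libraries were alike within counting error.

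The 37 gene lists were written from general knowledge, and members, lists and genes named were chosen with earlier results of these data known. Named were, among DEGs that carry a symbol, the 12 of smallest p that rose and the 4 that fell, up to 3 for each list, a fixed set of genes of calcification, matrix, muscle, lipid and inflammation, the 8 genes with the largest SD on Lard, and the 5 with the smallest p of the difference between tissues. Other members of lists are named after their values were seen. Alternatives were DESeq2 1.42.0, its size factors in edgeR, no filter, 2 groups only, limma 3.58.1 voom with quality weights, no robust estimation, a test against the fold of 1.5, and each library left out in turn. After the data were seen, voom and non-robust edgeR on 2 groups, leaving out Ctrl L569 and L571, and 3 settings on the mitochondrial classes were added. Scripts were tested on simulated data.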

Additional observations from a re-analysis of the deposited data

Results flagged for a closer look

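In the aortic valve, the Lard response of 35 of the 95 genes named differed from that of the aorta by the test of the difference itself (interaction, adjusted p under 0.05), and all 35 responses were lower in the valve. This model had no term for the rabbit; with the rabbit as a block 21 of the 35 were called, on plate 2 only 17, and with the Ctrl and Lard libraries alone 17, and each difference that could be fitted was negative. On the log2 scale, the response in the valve minus that in the aorta was −8.03 for MMP9, −7.83 for COL2A1, −6.80 for TNFSF11, −6.66 for COL11A1, −6.37 for NYAP2, −6.21 for RGS1, −5.11 for ITGAX and −4.96 for COL24A1. It was −4.52 for SCRG1, −4.22 for ALPL, −3.98 for RSPO2, −3.85 for RUNX2, −3.79 for CHRDL2, −3.78 for LY86, −3.73 for ACAN, −3.69 for COL23A1, −3.66 for TNFAIP6, −3.54 for IGSF6, −3.46 for RUNX1, −3.42 for ITGAM, −3.33 for TNC and −3.06 for MYO1F. Smaller differences were found for LCP1 (−2.61), MATN1 (−2.50), P4HA3 (−2.48), LEF1 (−2.35), COL8A1 (−2.28), FCER1G (−2.25), DISC1 (−2.18), UCP2 (−2.11), CYBB (−1.92), CD68 (−1.78), TLR2 (−1.70), BMPER (−1.69) and DOCK10 (−0.88). Most of these genes were chosen as higher in the aorta on Lard, so that a lower response elsewhere is partly given by their choice.

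Single libraries stood far from the other 6 of their group, by Dixon's test, in 20 groups of libraries (the Ctrl and the Lard group of each of the 95 named genes and 37 list scores were tested), where chance gives about 1 in 20 of all groups. In Ctrl these were L571 for NYAP2 (0.124 CPM), RGS1 (0.0621 CPM) and CD28 (0.0621 CPM), L570 for PGBD5 (0.0546 CPM) and IBSP (0.109 CPM), L568 for TNFSF11 (0.221 CPM) and FBN1 (3866 CPM), L569 for BMPER (1.21 CPM), and L552 for LY86 (0 CPM), COL8A1 (19.0 CPM), TNC (3.63 CPM) and COL2A1 (8.39 CPM). On Lard they were L563 for PDP1 (60.0 CPM), L578 for ENPP1 (98.2 CPM), L564 for SLC20A2 (12.6 CPM) and L577 for CD163 (10.8 CPM). Among list scores (mean log2 CPM) they were Ctrl L568 for matricellular proteins (5.71), Ctrl L569 for cell division (1.29), Ctrl L553 for mast cell genes (0.81) and Lard L564 for adventitial fibroblast genes (9.06). Several of the Ctrl values near 0 amount to 1 to 4 read pairs. The single Ctrl library with COL2A1 at 8.39 CPM, L552, was below all other Ctrl libraries for TNC.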

How the results depend on the processing

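In percent of the 14777 genes tested, 2.61% were DEGs between Lard and Ctrl, DESeq2 on 4 groups gave 4.68%, the test against a fold of 1.5 gave 0.927%, voom with quality weights 0.656%, and edgeR on the Ctrl and Lard libraries alone 0%. With settings chosen after seeing the data, the 2 groups alone gave 0% (edgeR without robust estimation) and 0.00677% (voom), leaving out Ctrl L569 and L571 gave 0.744%, and the libraries of the high and low mitochondrial class alone gave 0.711% (3 Ctrl, 5 Lard) and 0.115% (4 Ctrl, 2 Lard). DESeq2 size factors (2.67%), no filter (1.87%), no robust estimation (2.65%), DESeq2 on 2 groups (3.50%) and the mitochondrial class as a covariate (2.67%) stayed within 1.5 times. All these percents keep 14777 genes as the base. The fit without a filter tested 25558 genes, DESeq2 on 4 groups 25552 and DESeq2 on 2 groups 23939, so that their shares of the genes tested were smaller. Leaving out 1 library gave 1.45% to 3.81%, and 6.71% to 10.5% for Lard against CHT (9.35%). The difference between tissues (2.33% of 16125 genes) gave 1.04% on plate 2 only, 0.391% with Ctrl and Lard only, 1.31% without a filter, 4.64% with DESeq2, 1.44% with the rabbit as a block, and 1.19% to 3.68% without 1 library. These percents keep 16125 genes as the base, although 27050 were tested without a filter and 27047 with DESeq2.

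The biological coefficient of variation of Ctrl (0.364) and Lard (0.377) was 0.279 and 0.283 over genes of at least 10 CPM; in its place, the median SD of log2 CPM was 0.392 in Ctrl and 0.375 on Lard, which turns their order. Without 1 library the coefficient lay between 0.349 and 0.378 in Ctrl and between 0.350 and 0.393 on Lard. Of the 65 DEGs named, 41 kept their call in each of the 14 fits without 1 library. With DESeq2 and with its size factors all 65 were called, without a filter 52, with voom 21, with the test against the fold 42, and without Ctrl L569 and L571 34. Directions turned only for genes without a call and in the cases listed next. SLC20A2 (−0.01) was at 0.00 with voom on 4 or 2 groups, 0.21 without Ctrl L569 and L571, 0.23 in the low class, and −0.09 to 0.13 without 1 library (above or at 0 without Ctrl L569 or L571 and without Lard L562, L564 or L576). TNF (−0.10) was at 0.53 with voom, 0.83 without L569 and L571, 1.19 in the low class, and between −0.31 and 1.05 without 1 library (1.05 without Ctrl L571, 0.11 without Lard L576). ENPP1 was at −0.02 without L569 and L571. The red blood cell median was 0.90 without these libraries and 3.50 in the low class.

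With the class as a covariate, in the high class and in the low class, ATP8 (0.41) was at −0.35, −0.33 and −0.77, ND4L (0.39) at −0.44, −0.34 and −1.97, ATP6 (0.37) at −0.42, −0.36 and −0.43, CYTB (0.61) at −0.20, −0.12 and −0.20, and ND3 (0.55) at −0.14, −0.19 and −0.03. In the low class, with 2 Lard libraries, BPGM was at 0.02, CD28 at 0.00, MGP at −0.07 and ANGPTL4 at −0.18. The cause of these shifts was not tested. Depth limits the genes near 0 in Ctrl, such as SP7 and MMP1, to lower bounds. No paired analysis was possible because each aorta library of Ctrl and Lard came from a different rabbit and has a number of its own.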

Other observations

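CLEC3A, a cartilage-derived lectin outside the gene lists and chosen after its values were seen, had no read pair in any of the 7 Ctrl aortas. On Lard it had 957 read pairs in L575, 640 in L578, 330 in L562, 120 in L577, 40 in L564, 18 in L563 and 0 in L576 (adjusted p = 0.00726 by edgeR's quasi-likelihood test), so that its order of libraries was close to that of COL2A1 but led by L575.

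Of 11 neutrophil genes in the files, S100A8 and S100A9 passed the filter on low counts, S100A8 only through groups where it was higher. Their mean log2 CPM was 2.22 in L562, 0.41 in L563 and 0.11 in L564, and −1.57 or less in the other 4 Lard libraries, against −2.57 to −1.56 in Ctrl. L578, the library with the most COL2A1, was at −1.78. Schwann cell and nerve genes were at 4.10 in L562, 3.81 in L564 and 3.55 in L575, and at 1.46 in L576 and 1.79 in L563, against 1.79 to 2.98 in Ctrl.

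Mitochondrial genes fell into 2 classes of libraries that the labels do not name. The reads of 10 of the 13 protein-coding genes (COX2, ATP8, ATP6, COX3, ND3, ND4L, ND4, ND5, ND6 and CYTB) made up 0.703% to 1.60% of the reads of all 13 in 64 of the 134 libraries of the series, and 62.0% to 76.3% in the other 70. All 27 rabbits had their libraries, of up to 5 tissues, in 1 class, 13 rabbits in the low and 14 in the high class. Among the aorta libraries compared, ND1, ND2 and COX1 together held 3528 to 6227 CPM in the low and 3843 to 5622 CPM in the high class, while the 10 genes held 33.6 to 62.3 and 7782 to 11005 CPM. The gene ENSOCUG00000025982 went the other way, with 258.9 to 463 CPM in the low and 0.596 to 1.42 CPM in the high class. Lard had 2 of 7 libraries in the low class and Ctrl 4 of 7, and 5 of the 8 genes with the largest SD on Lard (ATP8, ND4L, ATP6, CYTB and ND3) belonged to the 10. The other 3 were IBSP, MMP13 and COL2A1. The cause of the classes was not tested.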
